A study of Mus musculus with 10 samples.

Results

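The genes of 2 neurotrophins and 4 of their receptors were followed in the prefrontal cortex (PFC) of *Zbtb16* knockout (KO) and wild-type (WT) mice. The members were taken by name from the raw count table, as 6 of its 22000 genes, and no threshold on their values was used. They are the ligand genes *Bdnf* and *Ntf3*, the Trk receptor genes *Ntrk2* and *Ntrk3*, the gene of the p75 receptor *Ngfr*, and the sortilin gene *Sort1*. RNA-seq was run on 5 KO and 5 WT mice, each with 1 library, at 7 weeks of age, and all were recorded as male. KO mice were homozygous for *luxoid* (*lu*), a point mutation that puts a stop codon into *Zbtb16*, from the line B6.C3-*Zbtb16* lu/J, and no treatment is named for either group. The mutation is constitutive and was present in every tissue from conception, so it marks no single cell type. Littermate controls were named for the behavioral mice, and the sources do not say whether the sequenced mice were littermates.

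Neurotrophins are secreted growth factors that keep neurons alive, guide the growth of their processes and tune synapses. They are made as proneurotrophins that are cut to mature forms. Mature brain-derived neurotrophic factor (BDNF) acts mainly on TrkB and mature neurotrophin-3 (NT-3) mainly on TrkC, both receptor tyrosine kinases, whereas the uncut forms bind p75 together with sortilin. In cortex, *Bdnf* transcription follows neuronal activity and starts from several promoters.

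Library totals ran from 30220122 to 51231439 counts, with a median of 34103584 in KO and 35595001 in WT mice. A count of 3, the limit that 0 counts allow, corresponded to 0.0586 to 0.0993 CPM (counts scaled to the library total), and this floor covers counting error only. *Zbtb16* was at 47.3 ± 4.89 CPM in KO and 79.1 ± 7.49 CPM in WT mice (SD, n = 5 each), which was 59.8% of the WT level, with no overlap (log2 fold change -0.67, edgeR adjusted p = 2.8e-05). All 5 KO libraries were below all 5 WT libraries. The reads were counted over the whole gene, of which the mutation removes no part. KO mouse 3 had 1 Y-linked count against 4376 to 8182 in the other 9 libraries, which goes against its label of male. KO mouse 5 stood apart in the first of the 3 surrogate variables, with a weight of 0.874. KO mouse 2 stood apart in the second, with a weight of 0.726, and had the highest score of the 10 mice for 6 of 11 cell type marker lists (astrocyte, oligodendrocyte, oligodendrocyte precursor, microglia, endothelial and meningeal fibroblast). The cortical excitatory neuron markers *Slc17a7* and *Tbr1* were present in every library, at 1380 to 1899 CPM and 157 to 184 CPM. In this bulk tissue, fewer cells of a type and less RNA per cell cannot be told apart.

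None of the 6 genes passed the test between genotypes. In the edgeR quasi-likelihood fit with surrogate variables, 0 of 6 had an adjusted p under 0.05, beside 0.844% of the 14344 genes tested (121 genes), of which 0.600% were higher and 0.244% lower in KO mice. At an unadjusted p under 0.05 the fit also gave 0 of 6, beside 10.6% of all tested genes, and DESeq2 called 0 of the 4 members for which it gave an adjusted p. Without surrogate variables, 0 of 6 passed after adjustment beside 0.209% of all tested genes, and 1 of 6 (*Ntf3*) had an unadjusted p under 0.05 beside 8.02%. The KO and WT values overlapped for 6 of 6 genes, whereas 1.63% of all tested genes had no overlap. Without KO mice 3 and 5, a choice made after seeing the data, 0 of 6 passed, and the log2 fold changes were 0.045 for *Bdnf*, 0.44 for *Ntf3*, 0.056 for *Ntrk2*, 0.018 for *Ntrk3*, 0.0043 for *Ngfr* and -0.0077 for *Sort1*. The 95% intervals of the fitted difference were narrow for *Sort1*, *Ntrk2*, *Bdnf* and *Ntrk3*, and wide for *Ntf3* and *Ngfr*, whose libraries held few reads. For *Bdnf* this held only with surrogate variables, since without them the interval ran from -29.9% to 21.2%.

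**Figure D1:**
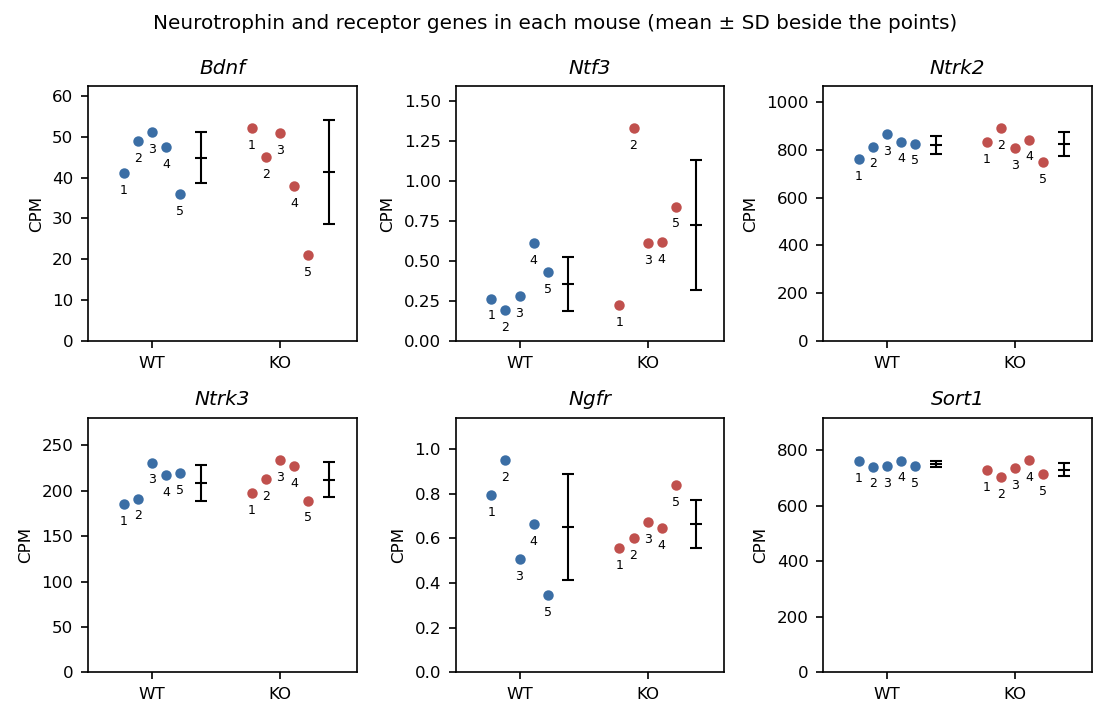
CPM (vertical axes, each from 0) of the 6 genes in each mouse, with mouse numbers under the points and the mean ± SD (n = 5) beside them, WT in blue and KO in red. KO and WT points overlapped in every panel. KO mouse 5 was lowest for *Bdnf* at 21.1 CPM, and KO mouse 2 was highest for *Ntf3* at 1.33 CPM.

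*Bdnf* encodes BDNF, the main TrkB ligand of the cortex. The gene (ENSMUSG00000048482.14) lies on the plus strand at chr2:109674700-109727007 of GRCm38, and its 11 annotated transcripts, all coding, have 9 different start sites. The reads of all starts were summed into 1 count per mouse, so the deposited values cannot tell the promoters apart. The 60 bases upstream of 3 of these starts are shown because they represent the alternative promoters whose transcripts that single count pools. They come from RefSeq (GRCm38.p6, plus strand, written 5′ to 3′) and belong to the most upstream start, to the start whose sequence holds the core of a cAMP response element, and to the start of *Bdnf*-202. The capitals mark that core, TGACG or its reverse complement CGTCA, searched on both strands.

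Bdnf start 109674700, chr2:109674640-109674699: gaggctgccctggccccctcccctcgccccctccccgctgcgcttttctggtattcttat
Bdnf start 109692436, chr2:109692376-109692435: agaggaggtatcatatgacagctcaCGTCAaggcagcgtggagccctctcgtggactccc
Bdnf start 109709383, chr2:109709323-109709382: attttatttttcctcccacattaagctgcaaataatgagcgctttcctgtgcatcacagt

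The core began 35 bases before the start at 109692436, and the 60 bases before the other 6 *Bdnf* starts listed by RefSeq did not hold these letters. Among all RefSeq promoter windows, 7.02% held the core in the 60 bases before the start. The match is a description of the letters and was not tied to any measurement here.

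*Bdnf* stood at 52.1, 45.0, 50.9, 37.9 and 21.1 CPM in KO mice 1 to 5. In WT mice 1 to 5 it stood at 41.0, 48.9, 51.1, 47.6 and 36.0 CPM. KO mouse 5 was below every other mouse, KO mouse 1 was above every other mouse, and the 3 remaining KO mice lay inside the WT range. The means were 41.4 ± 12.7 CPM in KO and 44.9 ± 6.25 CPM in WT mice (SD, n = 5 each). The coefficient of variation was 30.6% in KO and 13.9% in WT. The fitted log2 fold change was -0.0044 (SE 0.06, edgeR adjusted p = 0.988), with a 95% interval from -8.56% to 8.70% as a difference from the WT level. A two-sided exact permutation test of the mean CPM gave p = 0.643. The width of this interval rested on the surrogate variables, since without them the log2 fold change was -0.12 (SE 0.19) and the interval ran from -29.9% to 21.2%.

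*Ntf3* encodes NT-3, the preferred ligand of TrkC. The gene (ENSMUSG00000049107.13) lies on the minus strand at chr6:126101412-126166910. It was among the scarce transcripts, with 8, 42, 20, 21 and 43 reads in KO mice 1 to 5 and 8, 9, 10, 22 and 15 reads in WT mice 1 to 5. Scaled to depth, these were 0.223, 1.33, 0.611, 0.616 and 0.839 CPM in KO and 0.265, 0.190, 0.281, 0.610 and 0.431 CPM in WT mice. Of the 5 KO mice, 4 lay above every WT mouse, and KO mouse 1 lay inside the WT range. KO mice 3 and 4, with 20 and 21 reads, exceeded WT mouse 4, with 22 reads, only after scaling to depth. Counting error alone was sizeable, with exact Poisson 95% intervals of 0.0962 to 0.439 CPM for KO mouse 1 and 0.957 to 1.79 CPM for KO mouse 2.

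The mean of *Ntf3* was 0.723 ± 0.404 CPM in KO and 0.355 ± 0.167 CPM in WT mice (SD, n = 5 each), a KO mean of 204% of the WT mean. This did not pass the exact permutation test (two-sided p = 0.0873). The fit with surrogate variables gave a log2 fold change of 0.44 (SE 0.41, edgeR adjusted p = 0.774), with a 95% interval from -0.42 to 1.31, or -25.5% to 147% as a difference from the WT level. Without surrogate variables the log2 fold change was 1.03 (SE 0.44), the interval ran from 0.09 to 1.96, and the edgeR p was 0.0336 before and 0.597 after adjustment over all genes. With surrogate variables and 1 mouse left out in turn, the log2 fold change ran from 0.13 (without KO mouse 2, the highest mouse) to 0.84 (without KO mouse 1). It was 0.14 without KO mouse 4. The exact permutation p was 0.0159 without KO mouse 1, and it ranged up to 0.190 when other mice were left out in turn.

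*Bdnf* and *Ntf3* are members of 1 gene family, which bears on how reads are assigned. Their coding sequences matched at 58.6% of 768 aligned bases, and the longest stretch they shared exactly was 17 bases. It is shown because a read pair of 101 bases per end is far longer than the stretch that the genes have in common.

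Bdnf and Ntf3 shared stretch: atagacacttcctgtgt

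**Figure D2:**
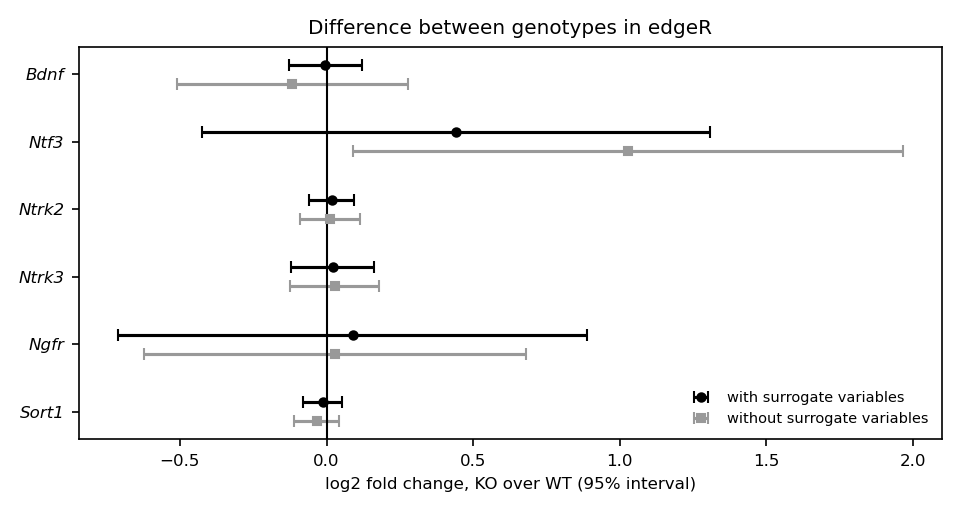
Log2 fold change of KO over WT (horizontal axis) with its 95% interval for the 6 genes, from the edgeR fit with surrogate variables (black circles) and without them (grey squares). The intervals cross 0 except for *Ntf3* without surrogate variables, whose interval runs from 0.09 to 1.96.

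*Ntrk2* encodes TrkB, the BDNF receptor, which neurons carry with its kinase domain and astrocytes largely as a truncated form. The gene (ENSMUSG00000055254.15) lies on the plus strand at chr13:58806569-59133970. Of its 10 annotated transcripts 7 are coding, with coding sequences of 2463 bases in 2 of them and 1398 to 1476 bases in the others. Counts were summed per gene, so the long and short forms cannot be told apart.

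*Ntrk2* was at 835, 890, 810, 844 and 749 CPM in KO mice 1 to 5. In WT mice 1 to 5 it was at 763, 814, 869, 835 and 827 CPM. The KO values spanned the WT range, with KO mouse 2 highest and KO mouse 5 lowest of the 10 mice. The means were 826 ± 51.8 CPM in KO and 822 ± 38.5 CPM in WT mice (SD, n = 5 each). The log2 fold change was 0.02 (SE 0.04, edgeR adjusted p = 0.921), and the 95% interval ran from -3.96% to 6.67%. The exact permutation p was 0.889 (two-sided). Without KO mouse 2 the log2 fold change was -0.013, and without KO mouse 4 it was -0.020.

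*Ntrk3* encodes TrkC, the NT-3 receptor, which likewise has kinase-bearing and truncated forms. The gene (ENSMUSG00000059146.12) lies on the minus strand at chr7:78175959-78738012, and 6 of its 20 annotated transcripts are coding. It was at 198, 213, 234, 227 and 189 CPM in KO mice 1 to 5. In WT mice 1 to 5 it was at 185, 191, 231, 217 and 219 CPM. The genotypes covered nearly the same range, and the lowest mouse was a WT and the highest a KO. The means were 212.0 ± 19.0 CPM in KO and 208.7 ± 19.7 CPM in WT mice (SD, n = 5 each). The log2 fold change was 0.02 (SE 0.07, edgeR adjusted p = 0.954), with a 95% interval from -0.12 to 0.16, and the exact permutation p was 0.754 (two-sided).

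The balance of the Trk receptors was compared within each mouse. The ratio of *Ntrk2* to *Ntrk3* in CPM per kilobase of exon was 6.12 ± 0.51 in KO and 6.18 ± 0.35 in WT mice (SD, n = 5 each). It ran from 5.42 to 6.66 over the 10 mice (two-sided exact permutation p = 0.849). The coding sequences of the receptors matched at 63.5% of 2387 aligned bases. Their longest exactly shared stretch, shown for the same reason as that of the ligands, had 23 bases.

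Ntrk2 and Ntrk3 shared stretch: gacccactcatcatggtctttga

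*Ngfr* encodes p75, a receptor without a kinase domain that binds all neurotrophins and marks the cholinergic neurons of the basal forebrain in the adult. The gene (ENSMUSG00000000120.6) lies on the minus strand at chr11:95568818-95587735 and has 1 annotated transcript. Read counts were 20, 19, 22, 22 and 43 in KO mice 1 to 5 and 24, 45, 18, 24 and 12 in WT mice 1 to 5. These were 0.557, 0.600, 0.672, 0.645 and 0.839 CPM in KO and 0.794, 0.950, 0.506, 0.665 and 0.345 CPM in WT mice. The WT mice were both the lowest and the highest, and all KO values lay between them. The means were 0.663 ± 0.108 CPM in KO and 0.652 ± 0.237 CPM in WT mice (SD, n = 5 each). The log2 fold change was 0.09 (SE 0.38, edgeR adjusted p = 0.967), and the 95% interval ran from -38.9% to 85.1%. Changes within this range were not excluded. The exact permutation p was 0.921 (two-sided). The summed level of the basal forebrain cholinergic markers was 1.31 to 2.50 CPM in KO and 1.29 to 3.33 CPM in WT mice. Of these markers *Lhx8* and *Isl1* reached 0 in some libraries. The other listed genes, *Chat*, *Slc5a7* and *Slc18a3*, were at 0.139 to 1.23, 0.463 to 1.18 and 0.148 to 0.775 CPM. Their lowest counts in any library were 5, 14 and 6.

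*Sort1* encodes sortilin, which binds proneurotrophins beside p75 and also sorts BDNF into the regulated secretory pathway. The gene (ENSMUSG00000068747.14) lies on the plus strand at chr3:108284082-108361511. It was the steadiest of the 6 genes, at 727, 704, 735, 765 and 715 CPM in KO mice 1 to 5. In WT mice 1 to 5 it was at 760, 741, 742, 763 and 742 CPM. Of the KO mice, 4 were below every WT mouse and KO mouse 4 was above every WT mouse. The means were 729 ± 23.0 CPM in KO and 750 ± 10.9 CPM in WT mice (SD, n = 5 each).

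The log2 fold change of *Sort1* was -0.01 (SE 0.03, edgeR adjusted p = 0.932), with a 95% interval from -5.39% to 3.74%. The exact permutation p was 0.103 (two-sided). KO mouse 4 decided this test in CPM. Without it the genotypes did not overlap and p was 0.00794, the smallest that the remaining mice allow. Leaving out the other mice in turn gave p up to 0.230. With TMM-scaled CPM of all mice the exact permutation p was 0.294, so this result depended on the scaling. The coefficient of variation was 3.15% in KO and 1.46% in WT mice.

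Antisense genes overlapped exons of 2 members. The gene *Gm45346* shares 896 bases with *Bdnf*, and *Gm12523* shares 338 bases with *Sort1*, both on the opposite strand. The libraries were stranded, but the sources do not state the strand setting of the counting, so a contribution of these genes cannot be told apart.

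The levels of the genes were compared per kilobase of exon, which removes the effect of gene length on CPM. In WT mice, *Sort1* was at 99.0 ± 1.44 CPM per kilobase, *Ntrk2* at 42.6 ± 1.99, *Bdnf* at 7.23 ± 1.01, *Ntrk3* at 6.92 ± 0.65, *Ntf3* at 0.207 ± 0.0974 and *Ngfr* at 0.189 ± 0.0689 (SD, n = 5). Among the 13602 tested genes with a length, the level of *Sort1* was at percentile 97.7, that of *Ntrk2* at 92.2, that of *Bdnf* at 57.2 and that of *Ngfr* at 4.64. Across the 10 mice the ratio of *Bdnf* to *Ntrk3* ran from 0.541 to 1.28 and that of *Ntf3* to *Ngfr* from 0.402 to 4.44, so neither pair of neighbors could be put in order. The other neighbors kept their order in each mouse, with *Sort1* 2.02 to 2.54 times *Ntrk2* and *Ntrk2* 5.13 to 11.5 times *Bdnf*. All annotated exons were counted into the length, which lowers the per-kilobase level of genes with many isoforms such as *Ntrk3*, at 30170 bases.

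The wider pathway was read from 7 lists of other genes. Of 113 such genes 108 were tested, and 0 passed the adjusted threshold in either direction in edgeR. DESeq2 called 3 of them (*Hap1*, *Rps6ka2* and *Spry4*), and edgeR fits with 1 mouse left out called 0 to 2. At an unadjusted p under 0.05 there were 23 genes, or 21.3% beside 10.6% of all tested genes, and without surrogate variables 13 of 108 genes beside 8.02%. The fitted values were above 0 for 67 and below 0 for 41 of the 108 genes, with a median log2 fold change of 0.03 beside -0.0044 over all tested genes. Over all tested genes, 48.1% of the fitted values were above 0. These lists were chosen with earlier results of the data known and the counts carry no test.

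Among the other neurotrophins and receptors, *Ntf5*, the gene of a further TrkB ligand, had 1 to 12 reads per library and did not enter the test. The sortilin relative *Sorcs2*, a partner of p75 for proneurotrophins, was at 53.1 ± 4.44 CPM in KO and 44.9 ± 4.88 CPM in WT mice (log2 fold change 0.17, edgeR adjusted p = 0.316), with an exact permutation p of 0.0238 before any adjustment. *Sorcs3* had a log2 fold change of 0.16 (adjusted p = 0.346), and *Sorcs1* and *Sorl1*, further receptors of that family, were at 61.1 and 536 CPM in KO against 64.1 and 557 CPM in WT mice.

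Among the proneurotrophin processing genes, 6 of 11 were higher and 5 lower in KO mice, with none past the threshold. The genes with the smallest p were *Pcsk6*, a proprotein convertase, with a log2 fold change of -0.26 (edgeR adjusted p = 0.338), and *Plat*, which encodes the plasminogen activator that starts extracellular cleavage of proBDNF, with 0.14 (adjusted p = 0.538). The Trk adaptor and signaling list split 22 to 17. *Rps6ka2*, a ribosomal S6 kinase gene, was at 99.8 ± 9.35 CPM in KO and 85.5 ± 8.39 CPM in WT mice (log2 fold change 0.22, edgeR adjusted p = 0.0667).

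Of the 13 partners of p75, 5 were higher and 8 lower. *Omg* and *Mag*, myelin proteins that act through the Nogo receptor complex with p75, had log2 fold changes of -0.12 (edgeR adjusted p = 0.136) and -0.10 (adjusted p = 0.583). The trafficking and release list, which held *Sort1*, split 6 to 5. *Hap1*, which carries proBDNF vesicles together with huntingtin, was at 81.8 ± 19.5 CPM in KO and 63.7 ± 10.1 CPM in WT mice (log2 fold change 0.17, edgeR adjusted p = 0.0587). Without surrogate variables the log2 fold change of *Hap1* was 0.36 (edgeR adjusted p = 0.520). *Gipc1* had a log2 fold change of 0.12 with surrogate variables (edgeR adjusted p = 0.310).

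The regulators of *Bdnf* transcription were above 0 for 12 of 16 genes (48.1% of all tested genes), with a median log2 fold change of 0.05. *Crtc1*, a CREB coactivator, was at 215.5 ± 4.83 CPM in KO and 201.0 ± 7.91 CPM in WT mice (log2 fold change 0.11, edgeR adjusted p = 0.256). Its genotypes did not overlap (exact permutation p = 0.00794 before any adjustment, the smallest that 5 against 5 can give), which held for 1.63% of all tested genes. *Bhlhe40* had means of 178.7 CPM in KO and 178.4 CPM in WT mice and a fitted log2 fold change of 0.16 (adjusted p = 0.286), while without surrogate variables the log2 fold change was 0.0090.

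Genes that TrkB signaling induces were above 0 for 14 of 15 genes with surrogate variables (48.1% of all tested genes), at a median of 0.12. Without surrogate variables 11 of 15 were above 0, at a median of 0.09. None passed the threshold in edgeR, and 6 of 15 had an unadjusted p under 0.05 with surrogate variables (10.6% of all tested genes) and 2 of 15 without them (8.02%). *Spry4*, a feedback inhibitor of receptor tyrosine kinases, was at 20.9 ± 5.83 CPM in KO and 17.1 ± 1.89 CPM in WT mice (log2 fold change 0.36, edgeR adjusted p = 0.118). *Npy*, a neuropeptide gene of interneurons, was at 64.7 CPM in KO and 74.0 CPM in WT mice (log2 fold change -0.19, adjusted p = 0.197). Several genes of this list are also immediate early genes, of which 12 of 13 were above 0 in KO mice (48.1% of all tested genes). None of these 13 passed the threshold in edgeR, and 4 had an unadjusted p under 0.05 (10.6% of all tested genes).

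**Figure D3:**
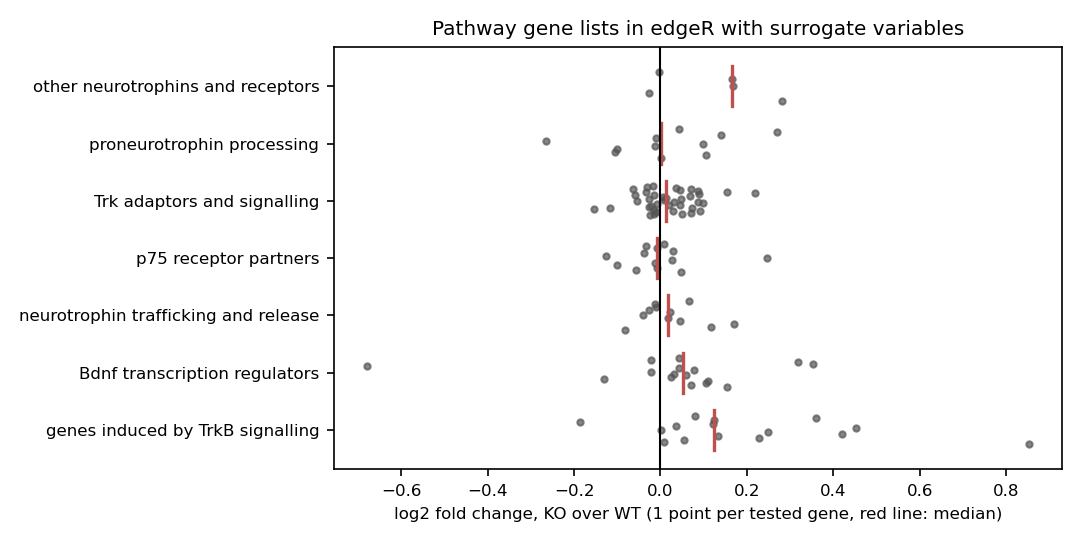
Log2 fold change of KO over WT (horizontal axis) of each tested gene in the 7 pathway lists (1 point per gene), with the list median as a red line, from edgeR with surrogate variables. No point passed the adjusted threshold, and the medians lie between -0.01 and 0.16.

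Genes whose levels moved most like each member from mouse to mouse were ranked by Pearson's r over the 10 mice, after subtracting genotype means from log2(CPM + 1), among 13214 genes. For *Bdnf* these were the activity-regulated scaffold gene *Homer1* (r = 0.984), the activity-regulated transcription factor gene *Egr3* (0.982) and the collagen-modifying enzyme gene *P4ha1* (0.979). Without KO mouse 5 and WT mouse 5 the values were lower, at 0.891, 0.927 and 0.894. *Homer1* was at 190 CPM in KO mouse 5 and at 357 to 533 CPM in the other 9 mice, so the same mouse was lowest for both genes.

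The receptors were ranked in the same way. For *Ntrk2* the leading genes were *Trappc13* (r = 0.934), *Atp2c1* (0.931) and *Adamts2* (0.924), and for *Ntrk3* they were *Dscaml1* (0.949), *Zfp532* (0.945) and *Btbd9* (0.934). Without KO mouse 5 and WT mouse 1 the values were 0.759, 0.742 and 0.906 for *Ntrk2* and 0.905, 0.932 and 0.904 for *Ntrk3*. For *Sort1* the genes were *Dph1* (0.924), *Got1* (0.918) and *Smg5* (0.904), at 0.933, 0.823 and 0.834 without KO mice 2 and 5. For the scarce genes they were *Clec3b* (0.965), *Csmd3* (0.951) and *Trim59* (0.948) beside *Ntf3*, and *Nup188* (0.925), *Mcts2* (0.912) and *Zbtb21* (0.908) beside *Ngfr*. Without KO mouse 2 and WT mouse 2 the values for *Ntf3* were 0.948, 0.949 and 0.948. Those for *Ngfr* were 0.845, 0.709 and 0.896 without WT mice 2 and 5. These genes were picked as the highest of all those ranked, so the values are descriptions.

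Each member was also set against scores of 11 cell type marker lists, the immediate early genes and the RNA integrity number (RIN), as 78 relations over the 10 mice. None passed after adjustment, and the lowest adjusted p was 0.519. *Bdnf* and the score of striatal neuron markers ran in opposite directions over the mice (Pearson r = -0.70, permutation p = 0.0119, adjusted 0.519, and Spearman rho = -0.71, permutation p = 0.0273, adjusted 0.930). Without KO mouse 5 and WT mouse 5, the mice farthest from the median score, r was -0.61, and with genotype means subtracted it was -0.68. Of the 10 listed striatal markers 9 were in the table, with a summed level of 439 to 609 CPM in KO and 414 to 713 CPM in WT mice, and the defining genes *Drd2* and *Adora2a* were at 0.702 to 9.36 CPM and 1.61 to 13.0 CPM. The part of these cells in the *Bdnf* values was not tested. With the striatal score as a covariate and no surrogate variables the log2 fold change of *Bdnf* was 0.05, beside -0.12 with neither.

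*Bdnf* was not ordered by the immediate early gene score (Pearson r = -0.10, permutation p = 0.770, adjusted 0.951, and Spearman rho = 0.08, permutation p = 0.839, adjusted 0.999). Without KO mouse 3 and WT mouse 5, r was -0.53. KO mouse 5, the lowest for *Bdnf*, had the second highest immediate early gene score. *Ntf3* was set against the oligodendrocyte precursor score in the same way (Pearson r = 0.77, permutation p = 0.0133, adjusted 0.519, and Spearman rho = 0.66, permutation p = 0.0443, adjusted 0.930). That relation rested on KO mouse 2 and WT mouse 2, without which r was 0.16. With the microglia score, *Ntf3* had a Pearson r of 0.64 (permutation p = 0.0424, adjusted 0.770) and a Spearman rho of 0.47 (permutation p = 0.179, adjusted 0.930). That r was 0.58 without KO mice 2 and 4 and 0.82 with genotype means subtracted. With genotype means subtracted, r was also 0.79 with the endothelial, 0.73 with the oligodendrocyte precursor and 0.72 with the meningeal fibroblast score. With the interneuron score, *Ntf3* had a Pearson r of -0.56 (permutation p = 0.0892, adjusted 0.770) and a Spearman rho of -0.68 (permutation p = 0.0348, adjusted 0.930). The summed microglia markers (7 of 7 measured) were at 264 to 298 CPM in KO and 250 to 282 CPM in WT mice, and the part of these cells in the *Ntf3* values was not tested. RIN was 9.06 ± 0.79 in KO and 9.08 ± 0.81 in WT mice (SD, n = 5 each).

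**Figure D4:**
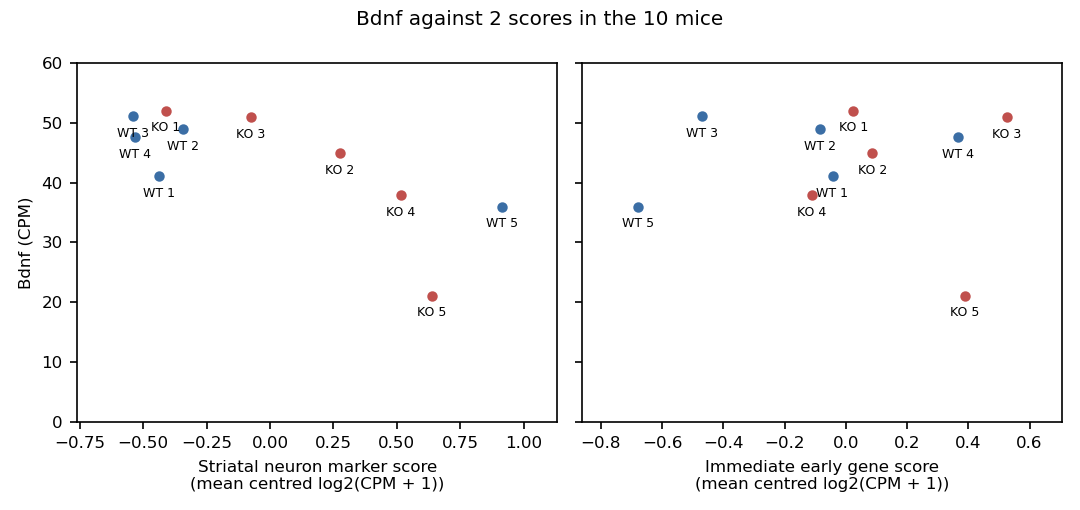
*Bdnf* in CPM (vertical axis, from 0) against the striatal neuron marker score (left) and the immediate early gene score (right), each the mean of log2(CPM + 1) centered per gene, with 1 labeled point per mouse, WT in blue and KO in red. *Bdnf* is lowest in KO mouse 5 at 21.1 CPM, and the left panel slopes down (r = -0.70) while the right panel shows no order (r = -0.10).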

How the data were processed

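Polyadenylated RNA of the PFC was made into stranded libraries and sequenced as paired ends of 101 bases. The deposited values are raw counts per gene, made by the authors with STAR 2.7.1a and HTSeq 0.9.1 on mm10, as the submitters' processing notes name them. The study's methods kept uniquely mapped reads and counted protein-coding genes, but how strand was handled in counting is not given in the sources used here. All 10 libraries were used, each from 1 mouse.

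Counts were tested in R 4.3.3 with edgeR 4.0.16 (TMM, filterByExpr, quasi-likelihood test), with genotype and 3 surrogate variables from sva 3.50.0 on log2(CPM + 1), as the study's methods fit genotype with surrogate variables. P-values were adjusted by the Benjamini-Hochberg method over 14344 genes, with a threshold of 0.05. Exact permutation tests of the mean CPM and permutation tests of correlations (100000 resamples) were computed with numpy 2.4.6. Ranks and the adjustment over the correlations came from scipy 1.17.1. Alternatives were fits without surrogate variables, with 1 or 2 of them, DESeq2 1.42.0, other normalizations and filters, and mice left out. In further fits RIN, a striatal score or a replicate block took the place of the surrogate variables. The fit of mice with RIN of at least 9.5 was also without surrogate variables. The edgeR fit with surrogate variables was tested on counts simulated with the same dispersion for every gene and nothing for surrogate variables to absorb. DESeq2 and the spread of each single gene were not tested in this way.

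The members, lists and tests were chosen with earlier results of these data known. Named pathway genes are those past the threshold in each list, or else the 2 with the smallest p, and the other neurotrophins and receptors. Some genes that this rule names are not reported here. For each member the 3 tested genes with the highest r and a mean of at least 1 CPM were named. Gene positions, exon lengths and coding sequences came from Gencode M21 (GRCm38), and promoters from RefSeq, which held entries for *Bdnf*, *Ntf3*, *Ntrk2* and *Ngfr*. Promoters of *Ntrk3* and *Sort1* were not used here.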

Additional observations from a re-analysis of the deposited data

Results flagged for a closer look

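Samples that stood far from their group were looked for in 50 groups of 5 mice with Dixon's criterion at the 95% level, which chance meets in about 1 in 20 groups. Of these groups 3 had 1 such mouse each, and none is among the 6 neurotrophin and receptor genes followed here. *Sorcs1* was at 48.8 CPM in KO mouse 2, below the other KO mice. *Sorcs2* was at 45.4 CPM in KO mouse 1, also below the other KO mice. *Crtc1* was at 187.0 CPM in WT mouse 2, below the other WT mice.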

How the results depend on the processing

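None of the 6 genes was called in any of the 25 fits, in which 4 of 148 values had an unadjusted p under 0.05 and the lowest adjusted p was 0.507. Of 142 alternative values, 26 had the opposite sign to the reported one, and 16 of these came from leaving out 1 mouse (5 for *Bdnf*, 2 for *Ntrk2*, 6 for *Ntrk3*, 2 for *Ngfr* and 1 for *Sort1*). The other 10 were for *Bdnf* and *Ngfr*. For *Bdnf* (reported log2 fold change -0.0044) they were 0.048 with 1 surrogate variable, 0.045 with 2 and 0.0080 with no count filter. Without KO mice 3 and 5 the value was 0.045. The others were from fits without surrogate variables, where the log2 fold change in all mice was -0.12. They were 0.047 with the striatal score, 0.012 without KO mice 3 and 5, and 0.11 in mice with RIN of at least 9.5. The latter were KO mice 1, 2 and 4 and WT mice 1, 2 and 5. For *Ngfr* the value was -0.016 with 1 surrogate variable. Without surrogate variables it was -0.21 at RIN of at least 9.5 and -0.12 without KO mice 3 and 5. The removal of KO mice 3 and 5 together was chosen after seeing the data. A filter of CPM above 1 removed *Ntf3* and *Ngfr*, and DESeq2 gave them no adjusted p.

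With each mouse left out in turn, log2 fold changes ran from -0.13 to 0.046 for *Bdnf*, 0.13 to 0.84 for *Ntf3*, -0.020 to 0.062 for *Ntrk2*, -0.10 to 0.092 for *Ntrk3*, -0.078 to 0.23 for *Ngfr* and -0.046 to 0.0035 for *Sort1*. Exact permutation p ran from 0.413 to 0.825 for *Bdnf*, 0.0159 to 0.190 for *Ntf3*, 0.381 to 0.976 for *Ntrk2*, 0.468 to 0.960 for *Ntrk3*, 0.421 to 0.944 for *Ngfr* and 0.00794 to 0.230 for *Sort1*. The count of pathway genes called ran from 0 to 2.

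The count over all genes (121) was 30 without surrogate variables, 34 with 1, 57 with 2 and 233 with DESeq2. With RIN in place of the surrogate variables it was 38, and with the striatal score in their place 10, both to be set beside the 30. It was 1 at RIN of at least 9.5 (KO mice 1, 2 and 4 and WT mice 1, 2 and 5), without surrogate variables. It was 16 without KO mice 3 and 5 and without surrogate variables, and 39 to 248 with a mouse left out. The cause was not tested. Called pathway genes numbered 3 with DESeq2 (*Hap1*, *Rps6ka2*, *Spry4*) and 1 without KO mice 3 and 5 (*Rps6ka2*). Whether the replicate numbers pair the mice cannot be settled with so few mice. Same-numbered mice correlated at -0.107 to 0.171, and 2 of 5 numbers matched best with themselves. A replicate block in place of the surrogate variables gave 24 calls over all genes, none of them a member. Its log2 fold changes were -0.17 for *Bdnf* and 0.99 for *Ntf3*. The 8 to 45 reads per library limit what can be said of *Ntf3* and *Ngfr*.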
